A study of Arabidopsis thaliana with 18 samples.

Results

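The interaction of genotype with methyl viologen (MV) asks, for each transcript, whether *pad2-1* and wild-type (WT) *Arabidopsis thaliana* changed to a different extent when they were grown with MV. It was measured over 12 arrays as a difference of differences, the MV response of *pad2-1* (MV minus control) minus the MV response of WT. A negative interaction therefore means a lower response in *pad2-1* than in WT. The test was run on 22746 probe sets, each a set of short probes for 1 or a few transcripts on the Affymetrix ATH1 array, and 376 of them passed it at an adjusted p under 0.05 (limma, Benjamini-Hochberg).

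All plants were in the Col-0 background, and the aerial parts of 18-day-old seedlings were taken. The 4 groups had 3 arrays each, namely *pad2-1* with MV, *pad2-1* under the control condition, WT with MV and WT under the control condition. *pad2-1* is homozygous for a recessive mutation induced by EMS in *GSH1*, the gene of γ-glutamylcysteine synthetase, and no second allele was on the arrays. The control medium was MS agar with sucrose, and the MV medium is given as 0.05 µM in the methods, although the sample labels print M as the unit. A further 6 arrays of both genotypes on medium with 20% of the phosphate (P-lim) belong to the series. Their means do not enter the interaction, but they share in the estimate of the spread behind its p-values, and the genotypes are also compared on them below. With only the 12 arrays in the fit, 294 probe sets were called, 272 of them among the 376. Each hybridization used RNA of 1 biological replicate. *GSH1* itself has no probe set under its name here, so the mutation was not checked on the arrays. The measured marker of green tissue, *RCA* (Rubisco activase), was at 13.16 to 13.29 over the 12 arrays. The root markers *EXPA7* and *EXPA18* were at 3.94 to 4.40 and 3.88 to 4.33, close to the lower quartiles of the arrays (3.80 to 3.91). Of the markers listed, 1 of 8 for green tissue, 2 of 9 for root and 0 of 5 for flower were measured. A gene counts as measured where a probe set carried its name, and 8608 of the probe sets tested had no name. Genes not measured in this sense may therefore still have a probe set on the array. Whole organs were extracted, so fewer cells of a type and less transcript per cell cannot be told apart.

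MV takes electrons from photosystem I in the light and hands them to oxygen, which yields superoxide and then hydrogen peroxide in the chloroplast. Glutathione, whose first step of synthesis is catalyzed by GSH1, feeds the ascorbate-glutathione cycle that removes hydrogen peroxide, and it is also a store of reduced sulfur and the substrate of glutathione transferases. Plants under oxidative load are known to raise heat shock proteins, which hold damaged proteins in a refoldable state, and nuclear genes for mitochondrial proteins that answer to impaired respiration. Aliphatic glucosinolates, which are made from methionine and carry sulfur, are defense compounds of the same sulfur budget.

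Many of the larger differences between the genotypes lay in transcripts that fell under MV in *pad2-1* and were not called in WT. Of the 376 probe sets (1.65% of those tested), 242 had a lower response in *pad2-1* than in WT (1.06%) and 134 a higher one (0.589%). A log2 size of 1 or more was reached by 89, of which 41 fell in *pad2-1* only. The MV response itself was called for 1821 probe sets in *pad2-1* (8.01%, with 4.16% higher and 3.85% lower) and for 3080 in WT (13.5%, with 7.98% higher and 5.56% lower). The balance of directions depended on the centring of the arrays. In WT 1815 were higher and 1265 lower, against 1275 higher and 1821 lower with all arrays shifted to the same median. In *pad2-1* 946 were higher and 875 lower, against 808 and 1069 after that shift. Of the 875 probe sets that fell in *pad2-1*, 152 also passed the interaction (17%). That share was 6.98% of the 946 that rose in *pad2-1*, 7.88% of the 1815 that rose in WT and 7.75% of the 1265 that fell in WT. These counts share the arrays from which the interaction was computed, so they describe the calls and are no separate test. Without the second array of *pad2-1* control, 240 probe sets were called (86 higher and 154 lower), and 238 of these were among the 376.

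The calls were sorted by the genotype that responded, using the test of MV against control within each genotype. In *pad2-1* only, 93 fell and 37 rose. In WT only, 101 rose and 52 fell. Opposite responses were rarer, with 19 that fell in *pad2-1* and rose in WT and 6 that rose in *pad2-1* and fell in WT. A further 63 moved the same way in both genotypes to a different extent, and 5 were called in neither. For each of the 376 the difference between the genotypes was itself tested. That test shows that the responses differed, and not that the response was absent where it was not called. The word only in the names of these classes therefore refers to the calls. A single gene names 181 of the 376, several genes or none the other 195, which ran from -3.86 to 2.98 and are not described further.

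**Figure D1:**
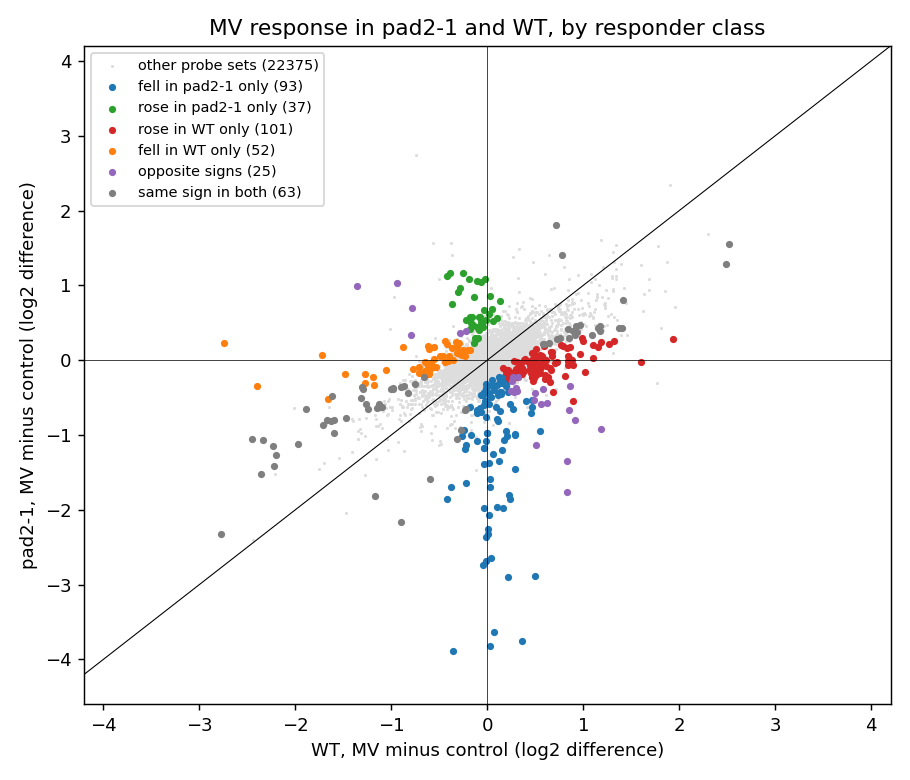
MV response in *pad2-1* (vertical axis) against MV response in WT (horizontal axis), both as log2 differences of MV minus control, with 1 point per probe set, colors for the responder classes and a line where both responses are equal. The 93 probe sets that fell in *pad2-1* only hang below the origin, with a median response of -0.81 in *pad2-1* and 0.05 in WT.

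The 93 probe sets that fell in *pad2-1* only had a median interaction of -0.92, against -0.01 over all probe sets. Their high group was *pad2-1* under the control condition, which stood farthest from the other groups in 84 of the 93. The gene with the most negative interaction was AT2G41730, for which the sources used here give no function. Its log2 values were 5.34, 5.04 and 5.48 in *pad2-1* with MV, 9.48, 9.39 and 8.24 in *pad2-1* control, 5.03, 5.07 and 4.95 in WT with MV, and 4.80, 4.63 and 4.55 in WT control. The *pad2-1* control arrays lay far above the arrays of the other 3 groups, with no overlap. AT2G41730 was 13.4-fold lower in *pad2-1* with MV than in *pad2-1* control and differed by 0.36 on the log2 scale in WT (adjusted p = 0.413 from limma). The interaction was -4.11 with a standard error of 0.35 (adjusted p = 1.07e-05 from limma).

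Small heat shock proteins, chaperones that bind unfolding proteins without ATP, were among the named genes with this pattern. *HSP23.5* (AT5G51440), the small heat shock protein of mitochondria, was at 5.12, 4.81 and 5.11 in *pad2-1* with MV, at 9.21, 9.21 and 8.31 in *pad2-1* control, at 3.68, 3.71 and 4.07 in WT with MV, and at 4.26, 4.23 and 4.07 in WT control. It was thus high in *pad2-1* control, and *pad2-1* with MV still lay above both WT groups on every array. The interaction of *HSP23.5* was -3.53 with a standard error of 0.29 (adjusted p = 1.07e-05 from limma). It came from a 14.9-fold fall in *pad2-1* and a log2 difference of -0.36 in WT (adjusted p = 0.301 from limma). *HSP17.6C* (AT1G53540), a small heat shock protein of the cytosol, was at 4.19, 3.74 and 3.48 in *pad2-1* with MV, at 6.42, 5.92 and 4.62 in *pad2-1* control, at 3.75, 3.56 and 3.31 in WT with MV and at 3.29, 3.28 and 3.32 in WT control. Its spread over the *pad2-1* control arrays was wide, yet the lowest of them was above all arrays of the other groups. The interaction of *HSP17.6C* was -2.09 (adjusted p = 0.0113 from limma). Both WT groups were below the highest lower quartile of the arrays (3.91), where a fall could hardly be measured. With a trended and robust variance prior *HSP17.6C* was no longer called.

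*HSP22* (AT4G10250), a small heat shock protein of the endoplasmic reticulum, changed less. It was at 3.80, 3.93 and 3.62 in *pad2-1* with MV, at 4.61, 4.28 and 4.37 in *pad2-1* control, and within 3.70 to 4.12 in the 6 WT arrays. The interaction of *HSP22* was -0.72 with a standard error of 0.14 (adjusted p = 0.0108 from limma). *ROF2* (AT5G48570), an FKBP-type peptidyl-prolyl isomerase that binds HSP90, was at 5.47, 5.22 and 5.19 in *pad2-1* with MV, 6.97, 6.78 and 6.26 in *pad2-1* control, 5.58, 5.36 and 5.19 in WT with MV and 5.34, 5.38 and 5.35 in WT control. Only *pad2-1* control stood apart among these 4 groups, by 2.6-fold over *pad2-1* with MV (interaction -1.40, standard error 0.19, adjusted p = 0.00056 from limma).

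The list of heat shock proteins and chaperones held 30 loci, of which 11 were measured. In the interaction 6 of the 11 were called, all lower in *pad2-1*, against a background of 1.06% for that direction. This list, like the others below, was chosen with earlier results of these data known, so its count is a description and no test. The median of the 11 was -0.81 and all 11 values were negative. MV lowered 7 of the 11 in *pad2-1* (3.85% of all probe sets) and 0 in WT (5.56%), where 1 rose (7.98%). The called members were *HSP23.5*, *HSP17.6B*, *HSP17.6C*, *ROF2*, *HSP22* and *HOP3*, a co-chaperone that links HSP70 with HSP90 (interaction -1.34, adjusted p = 0.0161 from limma). For several of these the count of 0 in WT says little, since their signals left little room for lower values. WT arrays with MV and control were at 3.68 to 4.26 for *HSP23.5*, 3.28 to 3.75 for *HSP17.6C* and 3.70 to 4.12 for *HSP22*. These lie near or below the lower quartiles (3.80 to 3.91), and *HOP3* averaged 3.72 over all 18 arrays. The same WT arrays lay higher for *ROF2* (5.19 to 5.58) and *HSP17.6B* (4.51 to 5.54). Those not called were *HSP26.5*, *HSP70-2*, *HSP15.7*, *HOP2* and *HOP1*, between -0.81 and -0.01. Without the dimmer 50% of the probe sets, which removed most of the called members, 1 was called.

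*HSP17.6B* (AT2G29500), also a cytosolic small heat shock protein, was the named gene with the most negative interaction among those with opposite responses. It was at 6.80, 6.29 and 5.87 in *pad2-1* with MV, 8.60, 8.26 and 7.40 in *pad2-1* control, 5.43, 5.54 and 5.38 in WT with MV, and 4.62, 4.74 and 4.51 in WT control. The groups did not overlap within either genotype, and *pad2-1* was above WT in both conditions. MV lowered *HSP17.6B* by 3.4-fold in *pad2-1* (adjusted p = 6.29e-05) and raised it by 1.77-fold in WT (adjusted p = 0.0208, both from limma), with an interaction of -2.59 and a standard error of 0.32 (adjusted p = 0.000352). The rise in WT was no longer called without the first or second array of WT with MV, without the first or the third array of WT control, or with a trended and robust variance prior, with adjusted p up to 0.0764 (limma). The interaction was called in each of these.

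Genes of mitochondria shared the pattern in part. *UPOX* (AT2G21640), a mitochondrial protein induced by oxidative stress and used as a marker of it, was at 6.26, 5.91 and 6.30 in *pad2-1* with MV, 8.13, 8.33 and 7.13 in *pad2-1* control, 5.35, 5.54 and 5.57 in WT with MV and 5.40, 5.42 and 5.56 in WT control. The WT groups overlapped and *pad2-1* with MV lay between them and *pad2-1* control. *UPOX* was 3.25-fold lower with MV in *pad2-1*, and its interaction was -1.73 (standard error 0.28, adjusted p = 0.00309 from limma). *NDB2* (AT4G05020), an alternative NAD(P)H dehydrogenase on the outer face of the inner mitochondrial membrane, was at 6.29, 6.16 and 6.28 in *pad2-1* with MV, 6.71, 6.73 and 6.53 in *pad2-1* control, 5.76, 5.97 and 5.79 in WT with MV and 5.49, 5.55 and 5.55 in WT control. It fell in *pad2-1* and rose in WT, by 1.33-fold and 1.24-fold (interaction -0.72, adjusted p = 0.00407 from limma). The rise in WT was lost without the second array of WT with MV, without any 1 of the WT control arrays, or with the arrays shifted to the same median (adjusted p up to 0.11 from limma). Of the 14 loci of the list of the mitochondrial dysfunction response, 4 were measured and 2 were called, both lower (1.06% of all probe sets), with a median of -0.53, while *NDB4* and *12Cys-2* had interactions of -0.33 and -0.03 (adjusted p = 0.393 and 0.976 from limma).

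**Figure D2:**
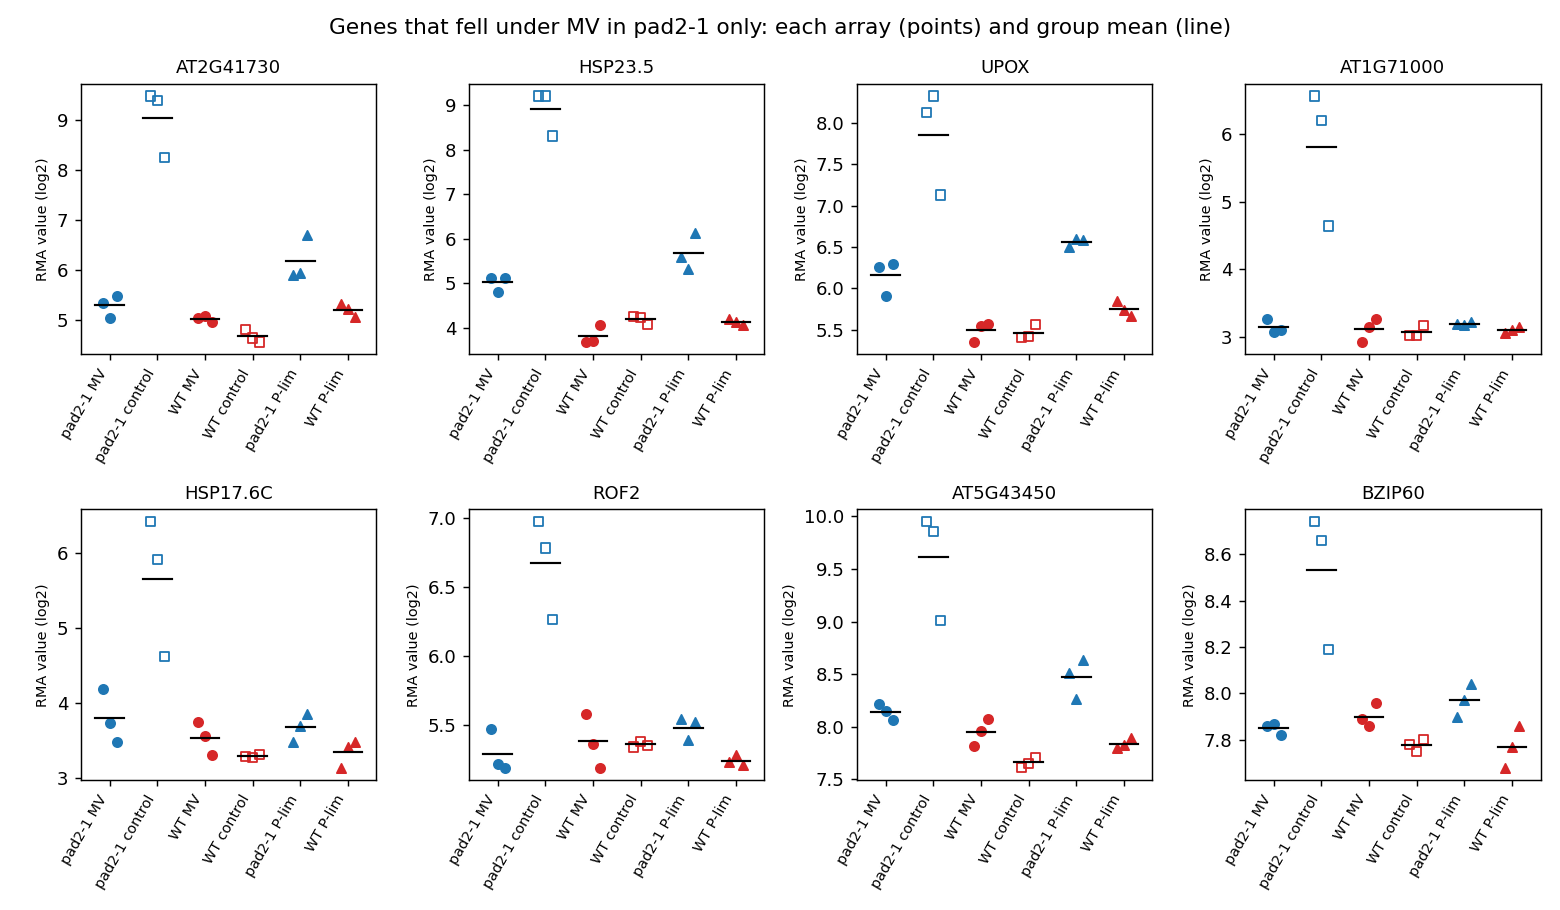
RMA values (log2, vertical axes) of 8 genes that fell under MV in *pad2-1* only, with 1 point per array and a line at the mean of each group of 3 arrays. In each panel the *pad2-1* control arrays are above those of *pad2-1* with MV and of both WT groups, as for *HSP23.5* at 8.31 to 9.21, and the third of them is the lowest.

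Other named genes of this class belonged to protein folding in the endoplasmic reticulum, detoxification and hormone synthesis. *BZIP60* (AT1G42990), a transcription factor of the unfolded protein response, was at 7.86, 7.87 and 7.82 in *pad2-1* with MV, 8.74, 8.66 and 8.19 in *pad2-1* control, 7.89, 7.86 and 7.96 in WT with MV and 7.78, 7.75 and 7.80 in WT control. Again *pad2-1* control alone was high (interaction -0.81, standard error 0.14, adjusted p = 0.00437 from limma). *UGT73C1* (AT2G36750), a UDP-glycosyltransferase able to conjugate foreign compounds, had an interaction of -1.24 (adjusted p = 0.0177 from limma) and fell 2.1-fold in *pad2-1*. Its WT arrays were at 3.38 to 3.70, below the highest lower quartile of the arrays, and the call was lost without the second array of *pad2-1* with MV, the second of *pad2-1* control or the first of WT control (adjusted p up to 0.0554). *ACX1* (AT4G16760), an acyl-CoA oxidase of the peroxisome that acts in jasmonate synthesis, had a small interaction of -0.39 (adjusted p = 0.0196 from limma). It was at 8.86, 8.85 and 8.85 in *pad2-1* with MV and 9.10, 9.25 and 8.98 in *pad2-1* control, and its call was lost without the second array of *pad2-1* control, without the first of WT control, or with only the 12 arrays in the fit (adjusted p over the arrays left out up to 0.0664).

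The remaining genes that the rule for named genes took from this class have only a locus name. AT1G71000 was at 3.27, 3.08 and 3.11 in *pad2-1* with MV, 6.56, 6.20 and 4.64 in *pad2-1* control, and within 2.93 to 3.27 in the 6 WT arrays, which is below the lower quartiles (interaction -2.69, adjusted p = 0.00212 from limma). It was thus seen above the dim range in 1 group only. AT5G43450 had an interaction of -1.75 (adjusted p = 0.00056 from limma) at a higher level, 8.06 to 8.22 in *pad2-1* with MV and 9.01 to 9.95 in *pad2-1* control. Without the third array of *pad2-1* control its response in WT was called as a rise as well. AT1G19020 (-2.09, adjusted p = 0.0169) and AT2G20560 (-1.62, adjusted p = 0.0163) lost their calls in other fits from limma. For AT1G19020 these left out the second array of *pad2-1* with MV, the second of *pad2-1* control or the first of WT with MV (adjusted p up to 0.0518), and for AT2G20560 the first of WT control (0.0515). The trended and robust variance prior also ended both, and the fit of 12 arrays ended that of AT2G20560. Further genes of the class, picked out after their values were seen, were *ERF71* (-1.48), an ethylene response factor of the hypoxia response whose means in *pad2-1* with MV and in both WT groups lay below 3.91, *Fes1A* (-1.14), a nucleotide exchange factor of HSP70, and *CYTC-2* (-0.92), cytochrome c of the respiratory chain.

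For this class the genotypes stood farther apart where no MV was given. Among the 93 probe sets that fell in *pad2-1* only, *pad2-1* was above WT in 15 and below it in 9 with MV, against 2.34% and 2.82% of all probe sets (5.16% either way, 533 above and 641 below, or 689 above and 504 below with the arrays shifted to the same median). Under the control condition it was above in 83 and below in 2, against 3.66% and 2.69% (6.35% either way). The median difference of *pad2-1* minus WT was 0.08 with MV and 0.90 under the control condition. Both comparisons use arrays of the interaction, so these values describe where the class lies and test nothing further. Taken array by array, the median distance of the 93 from the WT control mean was 0.17, 0.18 and 0.17 in *pad2-1* with MV, 1.15, 0.99 and 0.66 in *pad2-1* control, and 0.09, 0.06 and 0.06 in WT with MV. Of the *pad2-1* control arrays the third lay nearest to WT, and without it the class held 148 probe sets. Without the second array of *pad2-1* control it held 57.

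The means of the P-lim arrays do not enter the interaction with MV, although these arrays add to the spread in its fit, and without them the class held 75 probe sets. Under P-lim *pad2-1* was above WT in 34 of the 93 probe sets and below in 6, against 3.15% and 2.16% of all probe sets tested (5.31% either way). The median difference was 0.32, beside 0 over all probe sets. *HSP23.5* was at 5.60, 5.31 and 6.14 in *pad2-1* and 4.19, 4.13 and 4.07 in WT under P-lim (log2 difference 1.55, adjusted p = 0.000163 from limma). *UPOX* was at 6.50, 6.60 and 6.59 in *pad2-1* and 5.85, 5.74 and 5.67 in WT (0.81, adjusted p = 0.0208). The P-lim arrays of the genotypes did not overlap for either gene. *HSP17.6C*, *ROF2* and *BZIP60* were not called there (0.33, 0.25 and 0.20, adjusted p = 0.649, 0.367 and 0.318 from limma).

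**Figure D3:**
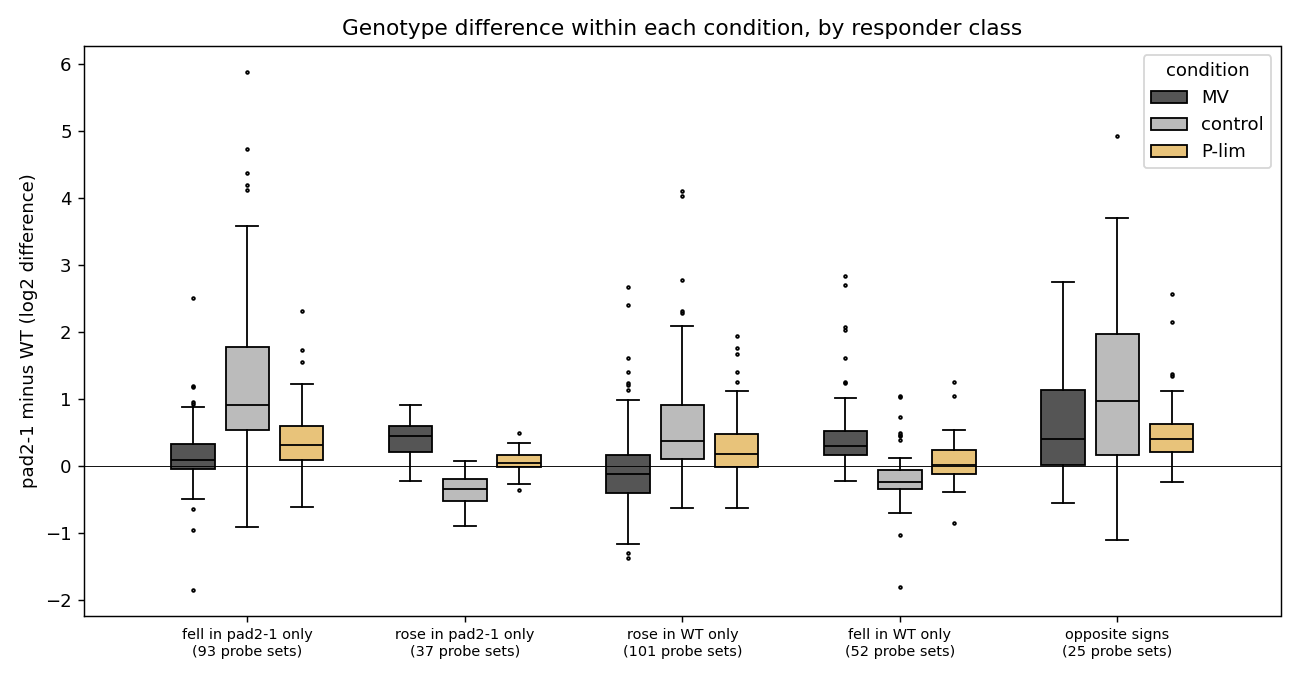
Log2 difference of *pad2-1* minus WT (vertical axis) within the MV, control and P-lim conditions for the probe sets of 5 responder classes, as boxes with the median and quartiles, whiskers to 1.5 times the box and points beyond. In the class that fell in *pad2-1* only the medians are 0.08 with MV, 0.90 under the control condition and 0.32 under P-lim.

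Transcripts that rose in *pad2-1* only were fewer and changed less, with a median interaction of 0.66 over 37 probe sets, 9 of them named. In 20 of the 37 *pad2-1* with MV was the farthest group and high, and in 17 *pad2-1* control was the farthest and low. Several act in the synthesis of glucosinolates and the assimilation of sulfate. *BCAT4* (AT3G19710), which transaminates methionine at the entry to its side-chain lengthening for aliphatic glucosinolates, was at 11.49, 11.62 and 11.64 in *pad2-1* with MV, 10.55, 10.87 and 11.06 in *pad2-1* control, 11.13, 10.34 and 10.79 in WT with MV and 11.09, 11.11 and 11.18 in WT control. Its *pad2-1* arrays with MV were above all others, and the WT groups overlapped. *BCAT4* rose 1.69-fold in *pad2-1* (adjusted p = 0.00212) and was not called in WT (log2 difference -0.37, adjusted p = 0.0969), with an interaction of 1.13 and a standard error of 0.20 (adjusted p = 0.00535, all from limma). Without the first array of WT with MV, which was the highest of its group, *BCAT4* was called as a fall in WT too.

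*UGT74B1* (AT1G24100) and *UGT74C1* (AT2G31790), glucosyltransferases of the glucosinolate core, also rose in *pad2-1* only. *UGT74B1* was at 9.51, 9.57 and 9.46 in *pad2-1* with MV, 8.85, 9.06 and 9.02 in *pad2-1* control, 9.33, 9.18 and 9.43 in WT with MV and 9.19, 9.47 and 9.29 in WT control. *UGT74C1* was at 9.65, 9.69 and 9.69 in *pad2-1* with MV, 8.99, 9.25 and 9.13 in *pad2-1* control, 9.51, 9.22 and 9.38 in WT with MV and 9.24, 9.30 and 9.29 in WT control. In both genes the *pad2-1* groups were apart and the WT groups overlapped. For *UGT74C1*, as for *BCAT4*, the *pad2-1* arrays with MV were above all others. For *UGT74B1* the *pad2-1* control arrays were below all others instead. The interactions were 0.54 and 0.46 (adjusted p = 0.0169 and 0.0204 from limma). Both calls were lost without the second array of *pad2-1* with MV or the second of WT control, that of *UGT74C1* also without the third of WT control or with only the 12 arrays in the fit (adjusted p over the arrays left out up to 0.0527 and 0.059). Of 31 loci of the aliphatic glucosinolate list 5 were measured under their own name. Of these 3 were called, all higher, against a background of 0.589%, with a median of 0.46 over the 5. This list too was chosen with earlier results of these data known. Without either of the 2 arrays that ended both calls, 1 of the 5 was called. *AOP3* and *GSTU20* had -0.07 and 0.22 (adjusted p = 0.876 and 0.531).

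*APS3* (AT4G14680), an ATP sulfurylase, which activates sulfate in the first step of its assimilation, was at 8.64, 8.60 and 8.66 in *pad2-1* with MV, 8.07, 8.18 and 8.10 in *pad2-1* control, 8.63, 8.46 and 8.50 in WT with MV and 8.42, 8.49 and 8.50 in WT control. Here *pad2-1* control was the low group, below every other array. The interaction of *APS3* was 0.46 with a standard error of 0.08 (adjusted p = 0.00588 from limma). *SUFE2* (AT1G67810), which stimulates cysteine desulfurase, the source of sulfur for iron-sulfur clusters, went the other way, with an interaction of -1.15 (adjusted p = 0.0195 from limma). It was at 6.41, 6.17 and 6.41 in *pad2-1* with MV, 7.25, 7.19 and 6.33 in *pad2-1* control, 3.80, 3.93 and 3.63 in WT with MV and 3.38, 3.19 and 3.11 in WT control, so that *pad2-1* was far above WT in both conditions. Of 16 other fits and leave-outs, 3 kept its fall in *pad2-1* and its rise in WT together. The WT groups of *SUFE2* averaged below the highest lower quartile, and the interaction was lost without the second array of *pad2-1* with MV, *pad2-1* control or WT with MV, without the second or the third of WT control, or with only the 12 arrays in the fit (adjusted p over the arrays left out up to 0.068). Of 29 loci of sulfur assimilation and glutathione 6 were measured, with 1 higher, 1 lower (0.589% and 1.06% of all probe sets) and a median of 0.07. *APS4*, *SIR*, *GR1* and *GR2* were between -0.08 and 0.29. The other genes named from the class have only a locus name, and their interactions were 0.66 for AT4G28240, 0.55 for AT3G61920, 0.51 for AT5G50335 and 0.43 for AT4G22110. Of these only AT4G28240 was called with each array left out (adjusted p up to 0.0415), while 6, 9 and 7 of the 12 leave-outs ended the calls of AT3G61920, AT5G50335 and AT4G22110 (up to 0.0829, 0.116 and 0.0867, all from limma).

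Among the genes that fell in WT only, *STZ* (AT1G27730), a zinc finger repressor induced by many stresses, was at 6.62, 7.14 and 7.59 in *pad2-1* with MV, 7.08, 7.14 and 6.92 in *pad2-1* control, 4.0, 4.32 and 4.51 in WT with MV and 6.11, 5.74 and 6.13 in WT control. The *pad2-1* groups overlapped and lay above both WT groups, and WT with MV was the lowest. *STZ* fell 3.29-fold in WT (adjusted p = 6.03e-05) and differed by 0.07 on the log2 scale in *pad2-1* (adjusted p = 0.917), with an interaction of 1.79 and a standard error of 0.33 (adjusted p = 0.00742, all from limma). AT1G72920 had the same order of groups, with 6.81, 6.96 and 7.50 in *pad2-1* with MV, 7.39, 7.31 and 7.11 in *pad2-1* control, 5.02, 5.22 and 4.94 in WT with MV and 6.46, 6.48 and 6.66 in WT control (interaction 1.30, adjusted p = 0.00483 from limma). Under P-lim *pad2-1* was again above WT for both, by 1.04 for *STZ* (adjusted p = 0.0131) and by 1.26 for AT1G72920 (adjusted p = 0.000118 from limma).

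*ORA47* (AT1G74930), an AP2/ERF factor that activates genes of jasmonate and abscisic acid synthesis, responded in opposite directions. It was at 5.59, 6.0 and 6.86 in *pad2-1* with MV, 4.96, 5.25 and 5.27 in *pad2-1* control, 4.58, 4.83 and 4.67 in WT with MV and 5.92, 6.05 and 6.18 in WT control. The MV and control arrays did not overlap in either genotype. *ORA47* rose 1.98-fold in *pad2-1* (adjusted p = 0.00576) and fell 2.56-fold in WT (adjusted p = 0.00022), with an interaction of 2.34 and a standard error of 0.30 (adjusted p = 0.00039, all from limma). AT2G28400 also rose in *pad2-1* (1.27-fold) and fell in WT (1.74-fold), with an interaction of 1.14 (adjusted p = 0.000286 from limma). Its rise in *pad2-1* was lost without the second or the third array of *pad2-1* with MV or of *pad2-1* control (adjusted p up to 0.147).

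Among the 6 measured of 27 early stress transcription factors, *STZ* was the only one called in the interaction (higher, as 0.589% of all probe sets), with a median of 0.39. *ERF1A* and *ERF6*, ethylene response factors, had 0.62 and 0.58 and missed the threshold (adjusted p = 0.0665 and 0.449 from limma). *ERF1A* was called without the second array of WT with MV, without the first of WT control, or with a trended and robust variance prior (adjusted p down to 0.00643 over the arrays left out). Both fell in both genotypes, *ERF1A* by 0.40 in *pad2-1* and by 1.02 in WT on the log2 scale. *WRKY53*, *WRKY6* and *WRKY22* were between -0.20 and 0.21.

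AT3G07350 had the largest interaction among the named genes that fell in WT only. It was at 5.76, 5.82 and 6.07 in *pad2-1* with MV, 6.35, 6.11 and 6.24 in *pad2-1* control, 5.86, 5.51 and 5.53 in WT with MV and 8.00, 8.23 and 7.88 in WT control. Unlike *STZ*, it was high in WT control alone, and it fell 5.28-fold in WT (interaction 2.05, standard error 0.27, adjusted p = 0.00045 from limma). AT1G32920 (1.14), AT3G19030 (0.96), AT1G49200 (0.96), AT2G27830 (0.93) and *AR781* (0.85) completed the named genes of this class, with adjusted p of 0.00373 to 0.0142 from limma. For AT1G32920 the fall in *pad2-1* was close to the threshold (-0.52, adjusted p = 0.0511), and 7 of the 17 other fits or leave-outs that gave a value placed it among the genes that fell in both. Over the 52 probe sets of the class, WT with MV was the farthest group and low in 28, and WT control was the farthest and high in 24.

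**Figure D4:**
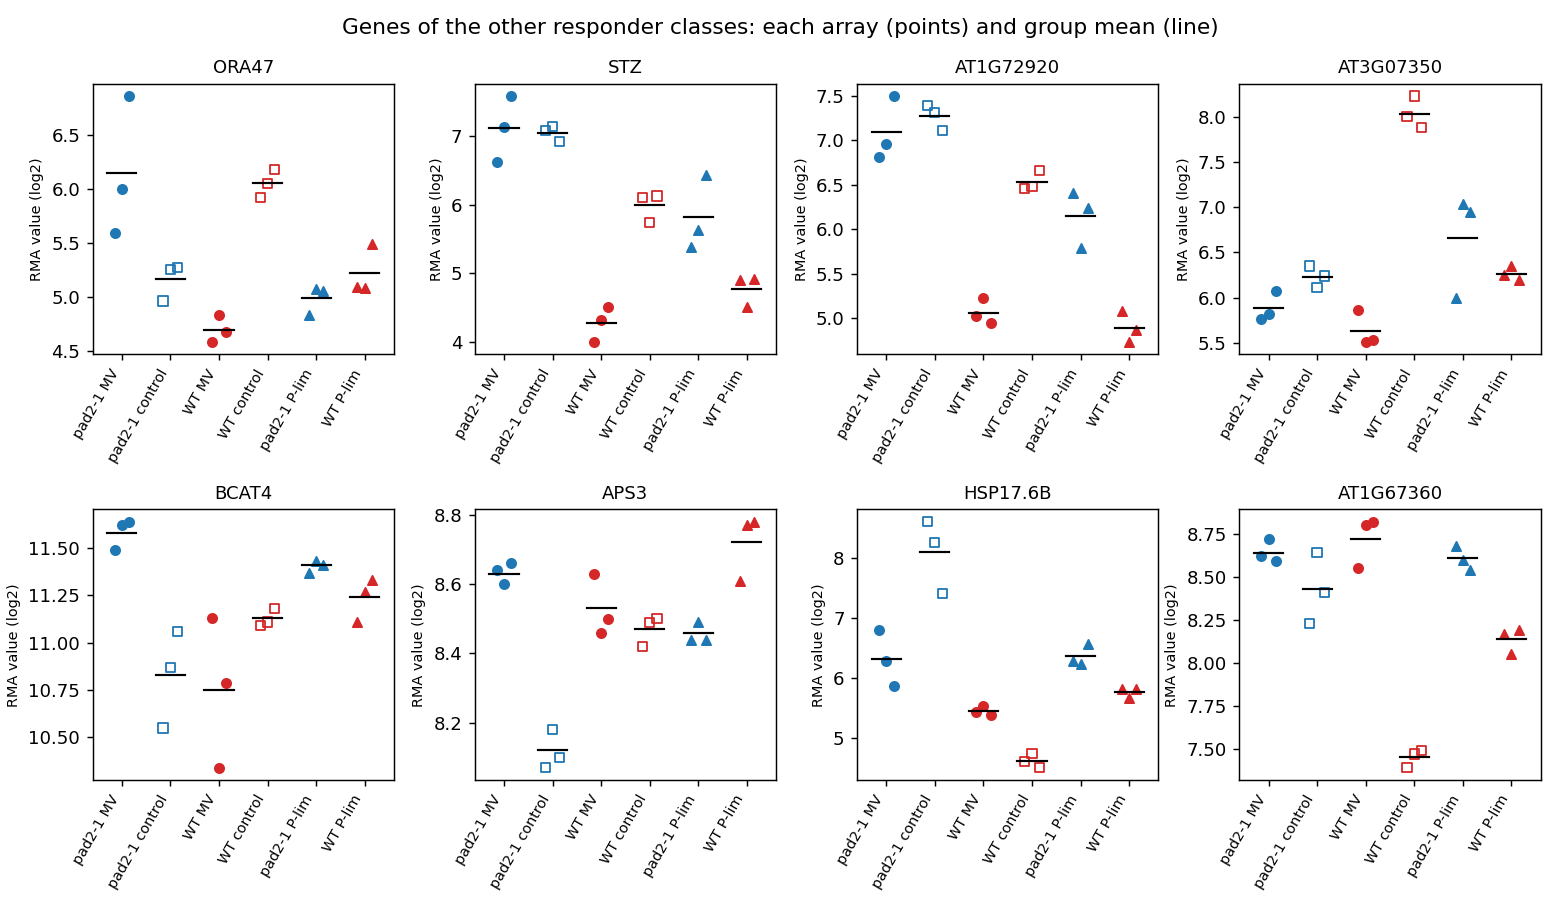
RMA values (log2, vertical axes) of 8 genes from the other responder classes, with 1 point per array and a line at the mean of each group of 3 arrays. *STZ* is at 4.0 to 4.51 in WT with MV and at 6.62 to 7.59 in *pad2-1* with MV, and *ORA47* is higher with MV in *pad2-1* and lower with MV in WT.

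The 101 probe sets that rose in WT only had a median interaction of -0.56. In 60 of them WT control was the farthest group and low, and in 38 WT with MV was the farthest and high. The 2 patterns differ in the level of *pad2-1*. AT1G67360 was at 8.62, 8.72 and 8.59 in *pad2-1* with MV, 8.23, 8.64 and 8.41 in *pad2-1* control, 8.55, 8.80 and 8.82 in WT with MV and 7.39, 7.47 and 7.49 in WT control. Only WT control was low here, while the other 3 groups overlapped (interaction -1.06, standard error 0.12, adjusted p = 0.00025 from limma). *PUB24* (AT3G11840), a U-box ubiquitin ligase that dampens pattern-triggered immunity, was at 4.84, 4.99 and 4.70 in *pad2-1* with MV, 5.36, 4.95 and 4.86 in *pad2-1* control, 6.09, 5.53 and 5.71 in WT with MV and 5.05, 4.95 and 4.91 in WT control. For *PUB24* it was WT with MV that stood apart and high (interaction -1.02, adjusted p = 0.00474 from limma).

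Among these 101 probe sets *pad2-1* control was above WT control in 61 and below in 5, against 3.66% and 2.69% of all probe sets. With MV it was above in 21 and below in 38, against 2.34% and 2.82%. These arrays also enter the interaction, so the counts describe the class and test nothing further. On the P-lim arrays it was above in 39 and below in 4, against 3.15% and 2.16% of all probe sets. AT4G13180 was an example with a wide gap, at 9.16, 9.09 and 9.32 in *pad2-1* with MV, 9.27, 9.18 and 8.87 in *pad2-1* control, 7.74, 7.92 and 7.71 in WT with MV and 6.60, 7.02 and 6.86 in WT control. Its *pad2-1* groups overlapped and lay above all WT arrays (interaction -0.88, adjusted p = 0.00423 from limma). AT2G41380 (-1.10), AT5G16980 (-1.06), AT1G68600 (-1.06), AT1G75280 (-0.94) and AT5G01740 (-0.91) were the other named genes of the class, with adjusted p of 0.00136 to 0.0133 from limma. Without the third array of *pad2-1* control, AT2G41380 and AT1G75280 were also called as falling in *pad2-1*, and without the second AT1G67360 was also called as rising there.

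UDP-glycosyltransferases attach sugars to hormones, secondary metabolites and foreign compounds. Of the 51 with a family symbol in the reference table, 1 was higher (*UGT74B1*) and 5 were lower in the interaction, against 0.589% and 1.06% of all probe sets, with a median of -0.03. *UGT74C1*, also higher, stands there under its locus and is not among the 51. The lower ones were *UGT73C1*, *UGT72E1* (-0.72), *UGT87A2* (-0.68), *GT72B1* (-0.67) and *UGT74D1* (-0.56). In the list of 11 glycosyltransferases of detoxification 5 were measured and 2 called, both lower (1.06% of all probe sets), with a median of -0.68. *UGT87A2* (AT2G30140) was at 8.37, 8.16 and 8.32 in *pad2-1* with MV, 8.76, 8.50 and 8.24 in *pad2-1* control, 7.70, 7.35 and 7.63 in WT with MV and 7.09, 7.18 and 7.02 in WT control. It was higher in *pad2-1* than in WT on every array and was called as rising in WT only (1.38-fold, interaction adjusted p = 0.0326 from limma). It was a weak call, since 8 of the 12 leave-outs and the fit of 12 arrays ended it (adjusted p up to 0.0942). *UGT73B5* had an interaction of -0.97 that missed the threshold (adjusted p = 0.0821) and passed it without the third array of *pad2-1* control (0.0023, both from limma). The 2 calls of the detoxification list became 0 without the second array of *pad2-1* with MV, the second of *pad2-1* control or the first of WT control.

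Genes that moved the same way in both genotypes made up 63 of the calls. In most of them the response was larger in WT, with 33 that fell more there and 21 that rose more there. AT2G20670 was at 5.18, 5.15 and 5.31 in *pad2-1* with MV, 6.59, 6.20 and 6.05 in *pad2-1* control, 4.33, 4.35 and 4.36 in WT with MV and 6.64, 6.85 and 6.57 in WT control. It fell 2.1-fold in *pad2-1* and 5.07-fold in WT (interaction 1.27, adjusted p = 0.00645 from limma). AT5G19120 (1.24) and AT5G60680 (1.14) had the same order of response (adjusted p = 0.00588 and 0.00402). Their falls in *pad2-1* were lost without the first or second array of *pad2-1* with MV or the first of *pad2-1* control, for AT5G60680 also without the third of *pad2-1* control or with a trended and robust prior (adjusted p up to 0.0899 and 0.152). AT3G19680 fell more in *pad2-1*, by 4.5-fold against 1.86-fold in WT (interaction -1.27, adjusted p = 0.00309 from limma). *LTI30* (AT3G50970), a dehydrin of cold and drought, fell 3-fold in *pad2-1* and 1.52-fold in WT. It was at 7.58, 7.19 and 7.48 in *pad2-1* with MV, 9.34, 9.04 and 8.63 in *pad2-1* control, 6.09, 6.05 and 5.90 in WT with MV and 6.54, 6.78 and 6.52 in WT control. The 4 groups of *LTI30* were fully apart, but the interaction (-0.98, adjusted p = 0.0254 from limma) was lost in 7 of the 12 leave-outs and with the trended and robust prior (adjusted p over the leave-outs up to 0.0788). Its fall in WT was lost without the third array of WT with MV or the second of WT control. The named genes called in the interaction and in neither genotype were AT1G23410 (0.59), AT4G36010 (-0.48) and AT2G44195 (0.34), with adjusted p of 0.0363 to 0.0459. These calls were weak, since 9, 10 and 10 of the 12 leave-outs ended them.

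Several pathways that MV or the loss of glutathione could touch had few or no calls in the interaction. Over all probe sets 1.65% were called, so 0 calls in families of this size do not set them apart from all probe sets. Families were counted by symbol, so members that the reference table gives by locus alone are not included. Members whose probe set has no name are not included either, and 195 of the 376 calls are not named by a single gene. By limma, 0 of 14 glutathione transferases (median -0.03) and 0 of 31 genes with the CYP symbol of cytochrome P450 were called. Among WRKY factors 0 of 8 were called, and among light-harvesting and photosystem genes 0 of 30. Cyclophilins share the CYP symbol, so the 31 include genes such as *CYP59* and *SQN* that are not cytochrome P450 genes. Most of the 30 are encoded in the plastid and are counted again among the organelle probe sets below. At an unadjusted p under 0.05 these families had 3, 4, 1 and 4 members, beside 2796 of all 22746 probe sets. Of the genes of antioxidant enzymes 3 were measured (*SAPX*, *TAPX* and *SRX*), with interactions of -0.31, -0.02 and -0.04 and 0 at an unadjusted p under 0.05. The flavonoid and anthocyanin list had 9 measured members, of which 0 were called and 3 passed an unadjusted p under 0.05, with a median of -0.35. MV raised 6 of them in WT and 3 in *pad2-1* (7.98% and 4.16% of all probe sets). That difference between counts was not itself tested. *DFR*, dihydroflavonol reductase of anthocyanin synthesis, rose in WT (log2 difference 1.62) and differed by 0.66 in *pad2-1* (adjusted p = 0.197), with an interaction of -0.96 (adjusted p = 0.324 from limma). It was called without the first array of *pad2-1* control (adjusted p = 0.00122). *UGT79B1*, an anthocyanin glycosyltransferase, had -0.78 (adjusted p = 0.19).

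The jasmonate list had 4 measured members and 1 call (*ACX1*, lower, as 1.06% of all probe sets), with a median of -0.40, and the abscisic acid and dehydration list 4 measured and 1 call (*LTI30*, lower), with a median of -0.32. The list of protein folding in the endoplasmic reticulum had 2 measured and 1 call (*BZIP60*, lower, as 1.06% of all probe sets). The lists of iron deficiency (3 measured), sugar and starch (4), clock (1) and salicylate defense (1) had none, with 0, 1, 1 and 0 members at an unadjusted p under 0.05. Another 4 lists had no member measured under its name. Of the probe sets of the plastid and mitochondrial genomes, 72 were measured, and their median interaction was -0.16 with 64 of them negative. Of the 72, 1 was called lower in the interaction (1.06% of all probe sets), and 18 fell in *pad2-1* with MV (background 3.85%). By array, their median distance from the WT control mean was -0.04, -0.34 and -0.22 in *pad2-1* with MV, and between -0.12 and 0.08 in the other 9 arrays. The part of this shift in the other results was not tested.

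**Figure D5:**
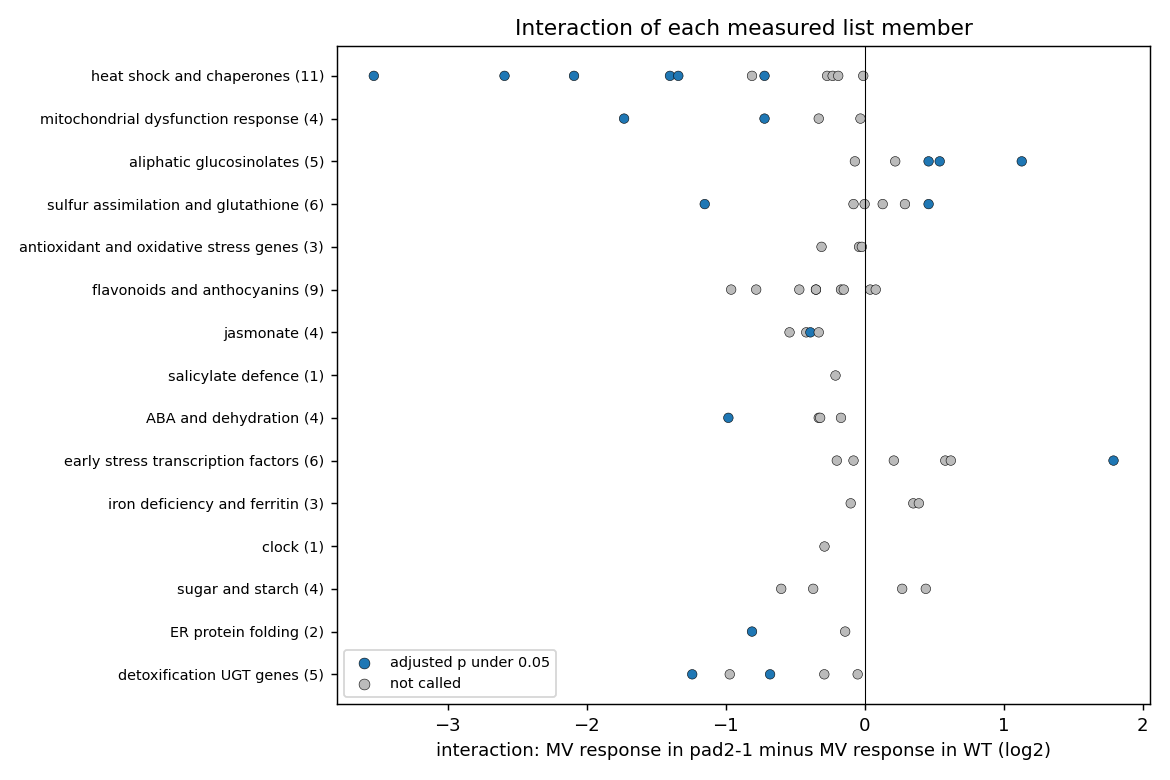
Interaction (log2, horizontal axis) of every measured member of the lists that had any, with 1 point per gene, blue where the adjusted p is under 0.05 and gray where it is not, and the number of measured members in brackets. The 11 heat shock and chaperone genes lie between -3.53 and -0.01, and the called members of the aliphatic glucosinolates between 0.46 and 1.13.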

How the data were processed

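RNA of aerial parts was hybridized to Affymetrix ATH1 arrays. The authors normalized the arrays with RMA (version not given in the sources used here) and deposited the resulting log2 values, which were used without further scaling. RMA equalizes the distributions of the arrays, so a shift shared by most transcripts cannot be seen, and compresses dim signals. The number of arrays limits the precision. Of 22810 probe sets, 64 control probe sets were left out. Names came from the platform table (13513 probe sets with 1 gene) and from 384 lines of a supplementary annotation (118), through the RefSeq table of TAIR10.1. In all, 13630 of the probe sets tested had 1 gene, 508 several and 8608 none. Loci without a symbol there (such as those of *HSP23.5*, *HSP17.6B*, *HSP17.6C*, *UPOX* and *UGT74C1*) carry their usual symbol from the gene lists.

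limma 3.58.1 (R 4.3.3) fitted 6 group means to all 18 arrays. The P-lim arrays add only to the estimate of the spread (12 residual degrees of freedom). Contrasts came from this fit, with Benjamini-Hochberg adjustment over all 22746 probe sets and calls at an adjusted p under 0.05. Groups were taken from titles and treatment labels, since the description of the WT arrays with MV names the normal medium. Arrays of 1 group correlated with r of 0.9964 to 0.9984 across probe sets, which are not independent. The steps were tested on simulated data. The named genes are, among calls naming 1 gene, the 8 largest of each class called in 1 genotype, 4 each with opposite and with the same direction, 3 of neither, and up to 4 genes of each list by the smallest interaction p. The 19 lists name 388 genes, and 68 of these had a value under their own name. The members and lists were chosen with earlier results of these data known. The locus of 1 list member, *EXL1*, was corrected after the values were seen, which took 1 called gene out of the sugar and starch list. Alternatives were the 12 arrays alone, the dimmer 50% left out, arrays shifted to the same median, a trended and robust variance prior, a block for the replicate number, each array left out, and a minimum log2 difference of 1.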

Additional observations from a re-analysis of the deposited data

Results flagged for a closer look

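Each named gene called in the interaction differed between the genotypes in its MV response, by the test of that difference itself (limma, adjusted p under 0.05 over all probe sets). So did 134 probe sets with a higher and 242 with a lower response in *pad2-1*. Values here are interactions on the log2 scale. Among genes that fell in *pad2-1* only, they were -4.11 for AT2G41730, -3.53 for *HSP23.5*, -2.69 for AT1G71000, -2.09 for *HSP17.6C*, -2.09 for AT1G19020, -1.75 for AT5G43450, -1.73 for *UPOX* and -1.62 for AT2G20560. In the same class *ROF2* had -1.40, *UGT73C1* -1.24, *BZIP60* -0.81, *HSP22* -0.72 and *ACX1* -0.39.

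Among genes that rose in *pad2-1* only, the interactions were 1.13 for *BCAT4*, 0.66 for AT4G28240, 0.55 for AT3G61920, 0.54 for *UGT74B1*, 0.51 for AT5G50335, 0.46 for *UGT74C1*, 0.46 for *APS3* and 0.43 for AT4G22110. Genes that fell in WT only had 2.05 (AT3G07350), 1.79 (*STZ*), 1.30 (AT1G72920), 1.14 (AT1G32920), 0.96 (AT3G19030), 0.96 (AT1G49200), 0.93 (AT2G27830) and 0.85 (*AR781*). Genes that rose in WT only had -1.10 (AT2G41380), -1.06 (AT5G16980), -1.06 (AT1G68600), -1.06 (AT1G67360), -1.02 (*PUB24*), -0.94 (AT1G75280), -0.91 (AT5G01740), -0.88 (AT4G13180) and -0.68 (*UGT87A2*).

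With opposite responses, *ORA47* had 2.34, AT2G28400 1.14, *HSP17.6B* -2.59, *SUFE2* -1.15 and *NDB2* -0.72. With the same direction in both genotypes, AT2G20670 had 1.27, AT5G19120 1.24, AT5G60680 1.14, AT3G19680 -1.27 and *LTI30* -0.98. AT1G23410 had 0.59, AT4G36010 -0.48 and AT2G44195 0.34, with neither response called.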

How the results depend on the processing

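Of the 51 named genes called in the interaction, 36 were called with each of the 12 arrays left out and 35 under every alternative that gave a value other than the minimum log2 difference of 1. None changed sign. With each array left out, the interaction called 86 to 152 probe sets higher and 154 to 331 lower. The lowest counts came without the second array of *pad2-1* control, the highest count of lower ones without the third. MV in *pad2-1* called 596 to 1005 higher and 577 to 913 lower (fewest without the first array of *pad2-1* control), and MV in WT 1240 to 1834 and 890 to 1267. *pad2-1* against WT called 341 to 573 higher and 389 to 665 lower with MV (341 and 391 without the third array of *pad2-1* with MV, 389 lower without its second, 423 lower without the first of WT with MV), and 580 to 849 higher and 323 to 664 lower under the control condition (323 and 324 lower without the third and second arrays of WT control). The classes held 57 to 148 that fell in *pad2-1* only, 29 to 41 that rose in *pad2-1* only, 64 to 128 that rose in WT only (66 without the first of WT control), 29 to 70 that fell in WT only (30, 32 and 34 without the second of WT control, the third of *pad2-1* with MV and the third of WT control), 12 to 39 that fell in *pad2-1* and rose in WT, 3 to 8 that rose in *pad2-1* and fell in WT, 40 to 62 with the same direction and 0 to 12 with neither called.

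With only the 12 arrays in the fit, 294 probe sets were called, 34 of which fell in WT only and 2 had neither response called. Without the dimmer 50% of probe sets 437 were called, 96 with the same direction and 3 with neither. With a trended and robust prior 456 were called, 10 with neither, and with arrays shifted to the same median 366 (154 higher and 212 lower). The cause of these shifts was not tested. A minimum log2 difference of 1 left 27 higher and 62 lower in the interaction, 37 and 79 for MV in *pad2-1*, 87 and 81 for MV in WT, 56 and 30 for *pad2-1* against WT with MV, and 131 and 9 under the control condition. Deviations from the group means correlated at -0.185 to 0.107 between same-numbered arrays of different groups. Between differently numbered arrays they correlated at -0.201 to 0.161, so by this measure the replicate numbers gave no sign of a pairing. With the replicate number as a block 328 probe sets were called, 119 higher and 209 lower, and 320 of them were among the 376. A second probe set for a named gene was not available, so that alternative gave no value. In 25 called probe sets both WT means were below 3.91, where differences are compressed.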
